A study of Mus musculus with 2 samples.

Results

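The Ikaros family holds 5 zinc finger transcription factors, encoded in the mouse by Ikzf1 (Ikaros), Ikzf2 (Helios), Ikzf3 (Aiolos), Ikzf4 (Eos) and Ikzf5 (Pegasus). They were taken by symbol from the 27998 genes of the count tables and each symbol matched 1 identifier. Their levels were followed through γδ T cells of 1 hepatic and 1 thymic library, both from untreated wild type C57BL/6J mice aged 8 weeks. Cells were sorted as CD3e+ and TCRγ/δ+, and the thymic suspension alone was first depleted with anti-CD4 and anti-CD8 beads, so the libraries differed in preparation as well as in tissue. The study gives the number of mice for both libraries as a whole and not for each. In the liver 8075 of 8658 cell barcodes and in the thymus 4351 of 4541 barcodes had 800 to 4000 genes and at most 6% mitochondrial UMIs, and a UMI is 1 captured transcript. With 1 library per tissue no test between tissues or classes was possible. All 95% intervals given here are exact (Poisson for levels, conditional binomial for ratios, binomial for shares) and cover counting error only.

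Ikaros proteins bind DNA through zinc fingers near the amino terminus and join each other through a pair of carboxy-terminal fingers. Much of the work of Ikaros, Helios and Aiolos is done in large complexes, above all with the chromatin remodeller NuRD, whose motor is Mi-2β (Chd4). In the T lineage Ikaros acts from the earliest progenitors onward. Helios is best known from thymocytes and regulatory T cells, Aiolos from later lymphocytes and from cells that make IL-17, and Eos as a partner of Foxp3. Pegasus, the most distant member, recognises another DNA sequence. The question followed here is which members were expressed at each thymic stage and in each liver cell type, and where one took the place of another.

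The cells fell into 12 clusters, built without the family genes and their partner and target lists. In the thymus the clusters that passed for immature cells, with high Cd24a, were a Cpa3-type cluster of 1192 cells, led by Igfbp4, Tox2 and Cpa3, and a cluster of 1238 cells led by Slc35d1, Tnfsf11, Lars2 and Sdc4. The second held the immature markers but could not be told apart by them as 1 of the marker types, so it is called Tnfsf11 immature after a leading gene. Transitional cells (1026 thymic and 46 hepatic) were led by S1pr1, Cd200 and Ccr7, and 533 thymic cells were cycling. The hepatic clusters were NK-like (2939 cells), γδ NKT-like (2680), pre-γδ T-like (1110), γδ T17-like (792), Klrg1 effector-like (269), myeloid-transcript (105) and interferon-response (71). The pre-γδ T-like and γδ T17-like clusters also held 180 and 166 thymic cells. A last cluster of B cell-like cells, with 16 hepatic and 3 thymic cells, was too small for a level.

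The labels held against the markers in most places. The 4 CD3 chain genes summed to between 2713 and 5008 UMIs per 1000000 UMIs of the class (CPM) in every class but the myeloid-transcript cells, where they reached 909 CPM beside 40858 CPM for the 6 myeloid markers. Of the regulatory T cell markers, Foxp3 stood at or below 1 CPM in every class except the 46 hepatic transitional cells, where 1 UMI made 7.12 CPM. The thymic transitional cells summed to 984 hemoglobin UMIs, of which 849 lay in 1 cell. Without it and 1 NK-like cell of the liver, the cells with 10 or more such UMIs, the hemoglobin genes left the cluster's leading genes, and each of 19 recomputed family ratios stayed within its interval. In the thymic pre-γδ T-like cells the type 1 effector genes Xcl1 and Nkg7 stood at 983 and 1546 CPM beside Cd24a at 54.7 CPM, so these cells carried effector transcripts and little of the immature marker. The study describes the cluster after which this class is named as γδ T precursor cells. The 2 libraries shared 60 barcode sequences.

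Ikzf2 was the leading family gene of the thymus and peaked in the transitional cells. Its level was 648 CPM (626 to 670) in Cpa3-type immature cells, 583 CPM (557 to 609) in Tnfsf11 immature cells, 547 CPM (524 to 570) in cycling cells and 955 CPM (922 to 988) in transitional cells. The transitional level lay above the other thymic classes without overlap of intervals. It was 1.53-fold (1.47 to 1.60) that of both immature clusters combined. The order was alike when cells were sorted by single marker genes in place of clusters. Ikzf2 stood at 582 CPM (565 to 599) in 1889 cells with a Cd24a UMI and no S1pr1 UMI. It stood at 734 CPM (707 to 761) in 831 cells with both, at 796 CPM (759 to 834) in 649 cells with S1pr1 alone, and at 585 CPM (559 to 613) in 982 cells with neither. S1pr1 encodes the receptor through which mature thymocytes leave the thymus, and Cd24a marks immature γδ thymocytes.

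In the remaining thymic classes Ikzf2 was much lower. In thymic pre-γδ T-like cells it stood at 335 CPM (289.9 to 386), 2.85-fold below the transitional cells, and in thymic γδ T17-like cells at 165 CPM (131 to 206). In that first comparison 17.4% of 6287 tested genes passed 2-fold in either direction, with 14.5% of the tested genes lower in the pre-γδ T-like cells, and the median log2 ratio was -0.30. Of the 4 family genes with at least 50 UMIs over both classes, 2 passed 2-fold, Ikzf2 and Ikzf5, both lower in the pre-γδ T-like cells. The Ikzf5 call rested on 11 UMIs in these cells and was lost when mitochondrial and ribosomal-protein genes were left out of the totals, which raised every ratio by 0.11 on the log2 scale. Ikzf1, at 0.523 times its transitional level, stopped short of it.

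**Figure D1:**
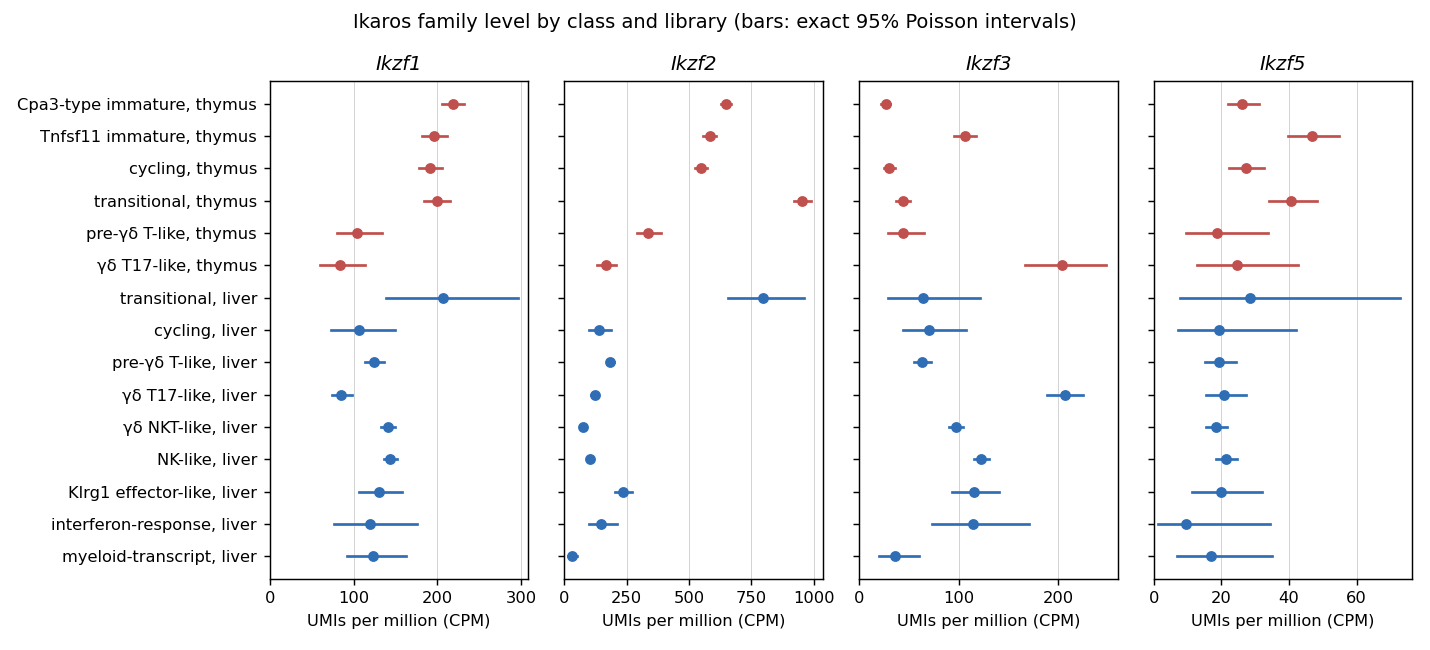
Level of Ikzf1, Ikzf2, Ikzf3 and Ikzf5 in CPM (horizontal axes, each from 0) in each class of the thymic library (red) and the hepatic library (blue), with exact 95% Poisson intervals as bars. Ikzf2 is highest in transitional cells of both libraries (955 and 798 CPM), and Ikzf3 in γδ T17-like cells of both (204 and 207 CPM).

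Ikzf1 is the founding member. Its highest levels formed a group of classes whose neighbouring intervals overlapped: Cpa3-type immature at 218 CPM (206 to 232), hepatic transitional at 207 CPM (138 to 297), thymic transitional at 199 CPM (184 to 215), Tnfsf11 immature at 196 CPM (181 to 211) and thymic cycling cells at 192 CPM (178 to 206). The hepatic classes from NK-like, at 144 CPM (136 to 152), to pre-γδ T-like cells, at 125 CPM (114 to 137), followed. Its lowest levels were those of the γδ T17-like cells, 85.3 CPM (74.2 to 97.6) in the liver and 83.7 CPM (60.1 to 114) in the thymus. Between the highest and lowest class Ikzf1 thus ranged over less than Ikzf2 did, which went from 955 CPM to 29.1 CPM in the myeloid-transcript cells.

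Ikzf1 lies on chromosome 11, from 11685003 to 11772926 on the plus strand of GRCm38, the build named mm10 in the submitters' processing notes. RefSeq promoter windows were at hand for Ikzf1 and Ikzf5, and those of Ikzf1 are shown because the motif searched is the one its own protein binds. They give the 250 bases before each of 2 annotated starts, at chr11:11685675-11685924 and chr11:11689927-11690176. Both windows lie inside the annotated gene and overlap no annotated exon. Capitals mark the core GGGAA of the Ikaros motif or its complement TTCCC, of which the first window has 0 and the second has 2.
Ikzf1 upstream window 1: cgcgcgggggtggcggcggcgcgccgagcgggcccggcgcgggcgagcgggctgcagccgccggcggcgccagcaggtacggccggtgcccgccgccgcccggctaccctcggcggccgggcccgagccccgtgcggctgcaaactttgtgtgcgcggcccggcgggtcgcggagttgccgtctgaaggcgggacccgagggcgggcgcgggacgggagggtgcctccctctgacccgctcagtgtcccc
Ikzf1 upstream window 2: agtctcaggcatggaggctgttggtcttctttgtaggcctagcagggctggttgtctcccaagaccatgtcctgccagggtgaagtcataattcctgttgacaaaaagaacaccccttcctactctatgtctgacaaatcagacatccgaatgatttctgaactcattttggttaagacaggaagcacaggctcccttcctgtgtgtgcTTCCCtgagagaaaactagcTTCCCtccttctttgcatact
The letters are common: 56.2% of all 32851 windows of this length held at least 1 core on either strand, so the match describes the sequence and marks no binding site.

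Ikzf3 separated the immature clusters. It stood at 26.6 CPM (22.4 to 31.4) in Cpa3-type cells and at 106 CPM (95.2 to 117) in Tnfsf11 immature cells, a ratio of 3.98 (3.26 to 4.88). In this comparison 5.27% of 8042 tested genes passed 2-fold, and of 4 family genes tested Ikzf3 alone did. Ikzf5 was 1.79-fold (1.41 to 2.26) higher in the Tnfsf11 immature cells, while Ikzf1 and Ikzf2 stood at 0.896 and 0.900 times their Cpa3-type level. Median depth was 2625 UMIs in the Tnfsf11 and 4156 UMIs in the Cpa3-type cells, and the contrast held after every cell was thinned to 1500 UMIs. An Ikzf3 UMI was then found in 14.1% (12.2% to 16.2%) of the Tnfsf11 and 3.61% (2.62% to 4.83%) of the Cpa3-type cells, against 22.1% and 10.1% before thinning. At the coarser clustering resolution of 0.4 the clusters merged and the contrast could not be formed.

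**Figure D2:**
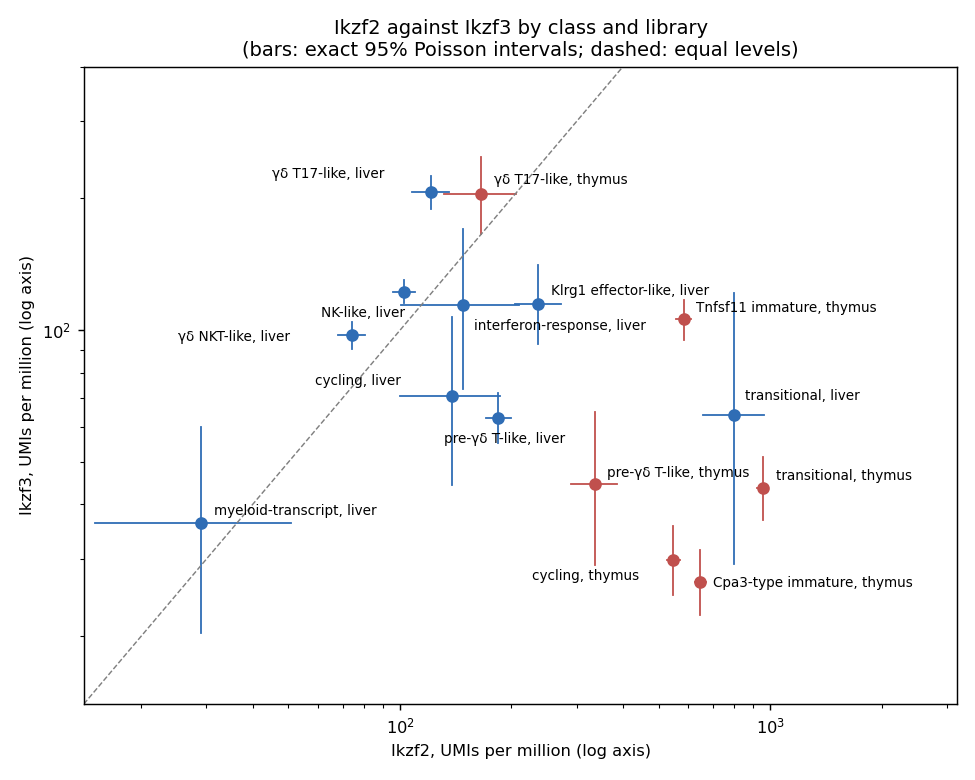
Ikzf2 (horizontal log axis) against Ikzf3 (vertical log axis), both in CPM, for each class of the thymic (red) and hepatic (blue) library with exact 95% Poisson intervals. The points of the γδ T17-like, NK-like, γδ NKT-like and myeloid-transcript classes lie above the dashed line of equal levels, though the thymic γδ T17-like and the myeloid-transcript cells have intervals that reach it, whereas transitional and immature thymic classes lie far to its right.

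The γδ T17-like cells had the highest Ikzf3 of all classes, and the level was the same in both libraries within its interval. It was 207 CPM (189 to 225) in the liver and 204 CPM (166 to 248) in the thymus, a ratio of 1.01 (0.815 to 1.27). Within the liver Ikzf3 was 3.28-fold (2.80 to 3.84) higher than in pre-γδ T-like cells and 1.69-fold (1.51 to 1.88) higher than in NK-like cells. Within the thymus it was 4.59-fold (2.96 to 7.37) higher than in pre-γδ T-like cells. Of the hepatic genes tested between γδ T17-like and pre-γδ T-like cells, 12.0% passed 2-fold, and among the 4 family genes tested Ikzf3 did. Ikzf1 went the other way, at 0.593 times (0.510 to 0.687) its NK-like level. Cells gated on an Il17a or Il23r UMI without Tyrobp or Cd28 gave the same picture, with Ikzf3 at 215 CPM (187 to 247) and Ikzf1 at 73.2 CPM (57.1 to 92.3) over 325 cells.

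In the liver the remaining classes were ordered differently by each member. Leaving aside the 46 transitional cells, Ikzf2 was highest in the Klrg1 effector-like cells, at 236 CPM (204 to 272), above pre-γδ T-like cells at 184 CPM (171 to 199), γδ T17-like cells at 121 CPM (108 to 136), NK-like cells at 103 CPM (95.9 to 110) and γδ NKT-like cells at 74.1 CPM (68.2 to 80.4). None of these 5 intervals overlapped its neighbour's except that of the γδ T17-like and NK-like cells, which met at their ends. Klrg1 effector-like cells, marked by Klrg1, S1pr5 and Gzmk, thus had 3.19-fold (2.69 to 3.76) the Ikzf2 of γδ NKT-like cells, marked by Socs2, Cd28 and Cd40lg. In that comparison 12.4% of 7875 genes passed 2-fold and Ikzf2 was the only one of 4 family genes to do so. Over 12 recomputed settings Ikzf2 stood at 98.8 to 106 CPM in NK-like and at 70.9 to 81.8 CPM in γδ NKT-like cells. Gates on single genes gave the other order, though they do not hold the same cells as the 2 classes. Ikzf2 stood at 125 CPM (115 to 135) in 1611 cells with a Cd28 UMI but no Tyrobp, Il17a or Il23r UMI. It stood at 105 CPM (98.6 to 112) in 3240 cells with a Tyrobp UMI but no Cd28, Il17a or Il23r UMI. Ikzf3 ran from 123 CPM (115 to 130.3) in NK-like and 115 CPM (92.9 to 141) in Klrg1 effector-like cells to 63.1 CPM (55.2 to 71.8) in pre-γδ T-like cells. Ratios against the pre-γδ T-like cells depended on scaling. Leaving mitochondrial and ribosomal-protein genes out of the totals lowered every ratio over these cells by 0.17 to 0.29 on the log2 scale. This turned the small Ikzf1 log2 excess of NK-like cells, 0.20, and of γδ NKT-like cells, 0.17, into a deficit. It moved the genes past 2-fold between NK-like and pre-γδ T-like cells, 11.3% of 8441, from 664 higher and 293 lower to 393 higher and 512 lower. For γδ T17-like over pre-γδ T-like cells the counts went from 583 higher and 261 lower to 459 and 346 in the liver, and from 241 and 107 (13.5% of 2578 genes) to 175 and 141 in the thymus.

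The myeloid-transcript class, the hepatic cells with least CD3, served as the class in which T cell transcripts should be scarce. After thinning, Ikzf2 was seen in 2.86% (0.593% to 8.12%) of its 105 cells and Ikzf3 in 5.71% (2.13% to 12.0%), at a median depth of 3069 UMIs. The γδ NKT-like cells, with a median depth of 2711 UMIs, had Ikzf2 in 10.4% (9.24% to 11.6%) and Ikzf3 in 13.9% (12.6% to 15.2%) of 2680 cells. Before thinning, 17.1% of the γδ NKT-like and 5.71% of the myeloid-transcript cells had an Ikzf2 UMI.

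Cells of the same class in both libraries allowed the tissues to be set side by side. In pre-γδ T-like cells Ikzf2 was lower in the liver, at 184 CPM against 335 CPM in the thymus, a ratio of 0.550 (0.469 to 0.648). The study named Ikzf2 among the genes that differed between its own thymic and hepatic precursor clusters. Those came from the same libraries, so the difference here is not independent evidence. The study's hepatic cluster held fewer cells than the class here, and cells were not matched to it. Ikzf1 and Ikzf3 stood at 1.20 (0.915 to 1.59) and 1.42 (0.944 to 2.22) times the thymic level, both with intervals that include 1. In γδ T17-like cells Ikzf2 was at 0.733 (0.572 to 0.949) of its thymic level, and Ikzf1 at 1.02 (0.726 to 1.46). No family gene of the 4 tested passed 2-fold in either comparison, where 9.17% and 8.37% of all tested genes did. The 46 transitional cells of the liver had 112 Ikzf2 UMIs, 798 CPM (657 to 959.9), the hepatic level nearest to that of the thymic transitional cells. They were 0.570% of the hepatic library. This class depended on clustering both libraries together: the liver clustered alone had none, and other settings gave it 14 to 98 cells with Ikzf2 down to 553 CPM.

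The make-up of the family transcripts differed between classes. Shares of a total trade off by construction, so a share can rise without a change in level. Ikzf3 stood at 43.7 CPM in thymic transitional and 44.5 CPM in thymic pre-γδ T-like cells, with shares of 3.51% and 8.81%. Counting the UMIs of all 5 genes, the thymic library held 929 CPM of family UMIs and the hepatic library 381 CPM. Per cell, not corrected for depth, these were 3.64 and 1.14 family UMIs. Ikzf2 made 76.6% (75.2% to 77.8%) of them in thymic transitional cells, 70.3% in Cpa3-type and 62.5% in Tnfsf11 immature cells. Ikzf3 made 2.89% (2.43% to 3.40%) in Cpa3-type cells, and 47.3% (44.3% to 50.3%) in hepatic and 42.7% (36.3% to 49.3%) in thymic γδ T17-like cells. In γδ NKT-like and NK-like cells Ikzf1 had the largest share, 42.3% and 36.8%. Pre-γδ T-like and Klrg1 effector-like cells of the liver kept Ikzf2 in front, at 47.0% and 47.2%. These counts do not scale with transcript length, but capture can differ between genes, so the change of a share between classes says more than the order of genes within 1 class.

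**Figure D3:**
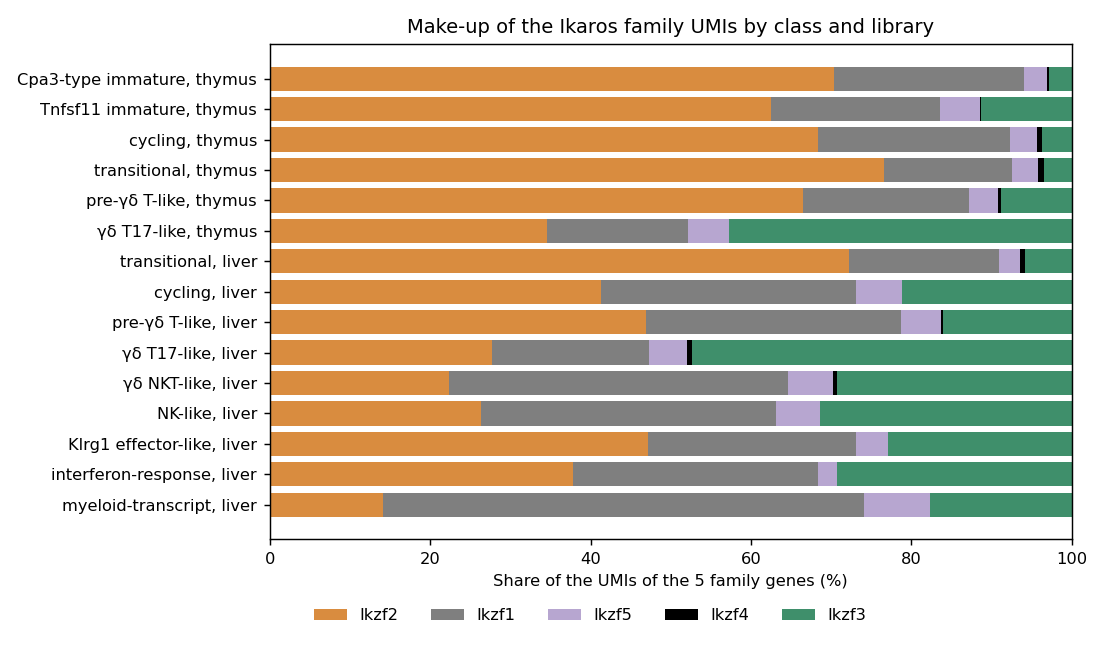
Share of each member among the UMIs of the 5 family genes (horizontal axis, percent) in each class of the thymic and hepatic libraries. Ikzf2 (orange) fills 76.6% of the bar for thymic transitional cells, and Ikzf3 (green) 47.3% of the bar for hepatic γδ T17-like cells.

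Expressed as a ratio, Cpa3-type immature cells had 24.3 (20.5 to 29.1) Ikzf2 UMIs for each Ikzf3 UMI, thymic transitional cells 21.8 (18.5 to 26.0), Tnfsf11 immature cells 5.50 (4.91 to 6.18) and thymic pre-γδ T-like cells 7.54 (4.99 to 11.8). In the liver the ratio was 2.92 (2.51 to 3.41) in pre-γδ T-like, 2.05 (1.59 to 2.66) in Klrg1 effector-like, 0.838 (0.764 to 0.919) in NK-like, 0.762 (0.682 to 0.851) in γδ NKT-like and 0.587 (0.508 to 0.678) in γδ T17-like cells. Ikzf3 thus outnumbered Ikzf2 in 3 hepatic classes with intervals below 1. The thymic γδ T17-like cells, at 0.810 (0.597 to 1.10), could not be placed on either side. By single-gene gates in the liver Ikzf3 also led in cells with Tyrobp alone, with 1096 UMIs against 983 of Ikzf2. It led in those with Il17a or Il23r alone, with 209 against 114. In cells with Cd28 alone Ikzf2 led, with 585 UMIs against 402 of Ikzf3.

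Within a class no cell by cell replacement of Ikzf2 by Ikzf3 was seen at the depth measured. Most thinned cells of each class had no Ikzf3 UMI, so these shares could miss such a replacement. Among 1235 thinned Tnfsf11 immature cells, Ikzf3 was found in 14.4% (11.7% to 17.3%) of those with an Ikzf2 UMI and in 13.8% (11.1% to 16.8%) of those without. In hepatic γδ T17-like cells the shares were 28.4% (20.5% to 37.6%) and 24.3% (21.1% to 27.7%), and in Klrg1 effector-like cells 17.1% (9.43% to 27.5%) and 17.7% (12.6% to 23.9%). In thymic transitional cells they were 7.80% (5.93% to 10.0%) and 4.73% (2.67% to 7.68%). In thymic cycling cells they were 5.34% (3.02% to 8.65%) and 1.98% (0.647% to 4.57%). The intervals overlapped in each pair. Ikzf2 itself was found in 69.0% (66.0% to 71.8%) of thinned thymic transitional cells, and 39.3% had 2 or more UMIs, with up to 9 in 1 cell. In hepatic pre-γδ T-like cells 22.0% (19.6% to 24.6%) had an Ikzf2 UMI and 5.59% had 2 or more.

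A finer view of thymic maturation came from the Cd24a count of each thinned immature or transitional cell. Ikzf2 stood at 525 CPM (447 to 613) in 203 cells with 4 or more Cd24a UMIs and at 630 CPM (534 to 738) in 163 cells with 3. It stood at 609 CPM (546 to 676) in 380 cells with 2 and at 711 CPM (665 to 760) in 822 cells with 1. In 1881 cells with 0 it stood at 765 CPM (733 to 798). Ikzf1 had overlapping intervals across the range, with 197 CPM (150.4 to 254) at 4 or more and 197 CPM (181 to 215) at 0. Ikzf3 followed no even course, with 115 CPM (80.1 to 159.9) at 4 or more, 36.8 CPM (22.8 to 56.3) at 2 and 62.7 CPM (53.8 to 72.7) at 0. Of the cells without Cd24a, 41.7% belonged to the transitional cluster, and of those with 4 or more, 3.94%.

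**Figure D4:**
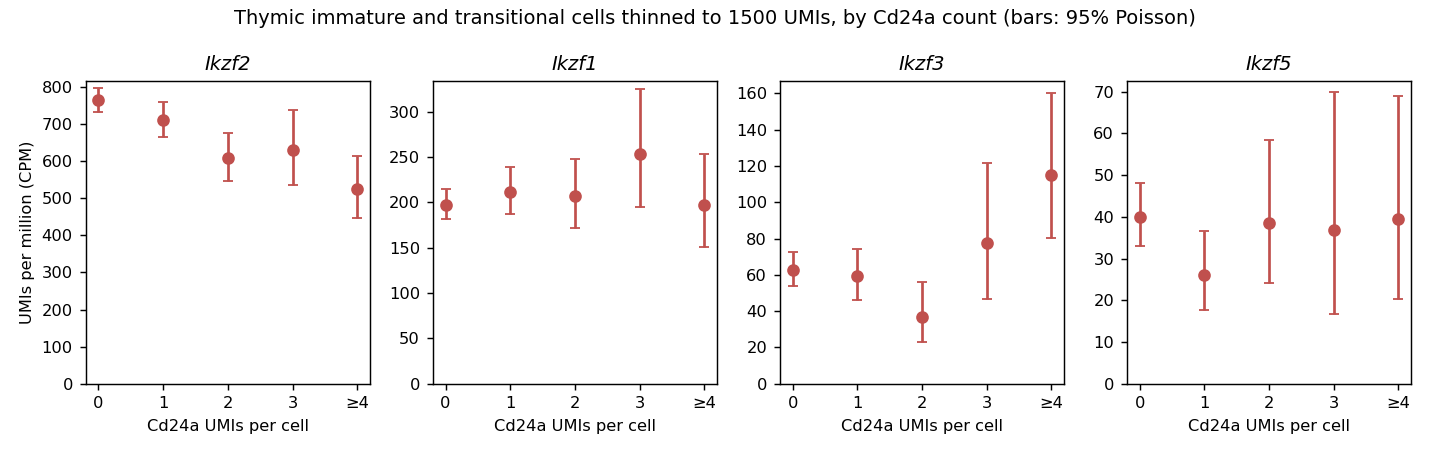
Level of Ikzf2, Ikzf1, Ikzf3 and Ikzf5 in CPM (vertical axes from 0) in thymic immature and transitional cells thinned to 1500 UMIs, by the number of Cd24a UMIs in the cell, with 95% Poisson intervals. Ikzf2 goes from 525 CPM at 4 or more Cd24a UMIs to 765 CPM at 0, and Ikzf3 from 115 to 62.7 CPM.

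Ikzf4 was close to the limit of detection. It had 62 UMIs in the thymic and 26 in the hepatic library. Of these, 28 lay in thymic transitional cells, 8.44 CPM (5.61 to 12.2), against 2.12 CPM (1.06 to 3.79) in Cpa3-type and 0.593 CPM (0.0718 to 2.14) in Tnfsf11 immature cells. Thymic cycling cells had 20 UMIs, 4.94 CPM (3.02 to 7.63). No UMI was found among the 2939 hepatic NK-like cells. The transitional level was 23.4-fold a floor of 3 counts in that class, 0.361 CPM. This figure leaves out the counting error of the transitional level. In γδ NKT-like cells 14 UMIs made 1.81 CPM (0.990 to 3.04). Ikzf4 lies on chromosome 10, from 128630843 to 128645991 on the minus strand.

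Ikzf5 was low. It was highest in Tnfsf11 immature cells, at 46.9 CPM (39.8 to 54.8), and thymic transitional cells, at 40.7 CPM (34.1 to 48.2), and stood between 18.4 and 21.3 CPM in the pre-γδ T-like, γδ T17-like, γδ NKT-like, NK-like and Klrg1 effector-like cells of the liver. Its intervals overlapped at each step of the order of 15 library-by-class groups. The annotated span of Ikzf5, 131388652 to 131410521 on the minus strand of chromosome 7, overlaps Fgfr2 on the same strand and Pstk on the other. Whether reads were counted by strand is not given in the sources used here, so its counts are less certain than those of the others. Ikzf2 (chromosome 1, 69531214 to 69687245) and Ikzf3 (chromosome 11, 98464902 to 98546031), both on the minus strand, overlap no listed gene with more than 5 UMIs.

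Genes of the NuRD complex, with which Ikaros proteins work, were followed as a list of 14, of which 13 were tested in each comparison named here. Between whole libraries 4 of the 13 were at least 2-fold lower in the liver and 0 higher, where 16.9% of 10869 genes were lower, 12.1% higher and so 29.0% past 2-fold in either direction. The median log2 ratio of all genes was -0.22, and leaving mitochondrial and ribosomal-protein genes out of the totals lowered every ratio by 0.14 more. These were Mta3 (2.80-fold), Chd4 (2.26-fold), Mta1 (2.23-fold) and Gatad2b (2.22-fold). Of the family, 3 of 5 passed: Ikzf2 and Ikzf4 lower by 5.54-fold and 3.38-fold, and Ikzf3 higher by 2.14-fold. The Ikzf3 call was lost without mitochondrial and ribosomal-protein genes, with thinned cells and as a mean of each cell's own CPM, at log2 ratios of 0.96, 0.91 and 0.90. Chd4 stood at 172 CPM in the thymic and 76.2 CPM in the hepatic cells. Within the thymus fewer of these genes differed. Between transitional and both immature clusters 0 of 13 passed 2-fold, beside 7.22% of 8753 genes, and between the immature clusters 0 of 13. Between transitional and thymic pre-γδ T-like cells 2 of 13 passed, both lower in the latter, beside the 14.5% of all genes given above. Chd3, a sister of Chd4, stood at 159 against 404 CPM and Mta3 at 70.1 against 174 CPM. In hepatic γδ T17-like cells Mbd2, which binds methylated DNA, was 2.36-fold its pre-γδ T-like level.

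Of the 4 corepressors Sin3a, Sin3b, Ctbp1 and Ctbp2, 0 passed 2-fold between the libraries, though Ctbp2, at 0.504 times its thymic level with 30 against 42 UMIs, did so without mitochondrial and ribosomal-protein genes in the totals. Of the 5 genes of the cereblon ubiquitin ligase, through which thalidomide analogs have Ikaros and Aiolos degraded, 0 passed. Within the liver Crbn, its substrate receptor, was 2.26-fold lower in γδ T17-like than in NK-like cells, at 29.6 against 66.9 CPM, in a comparison where 16.0% of 8375 genes passed 2-fold.

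**Figure D5:**
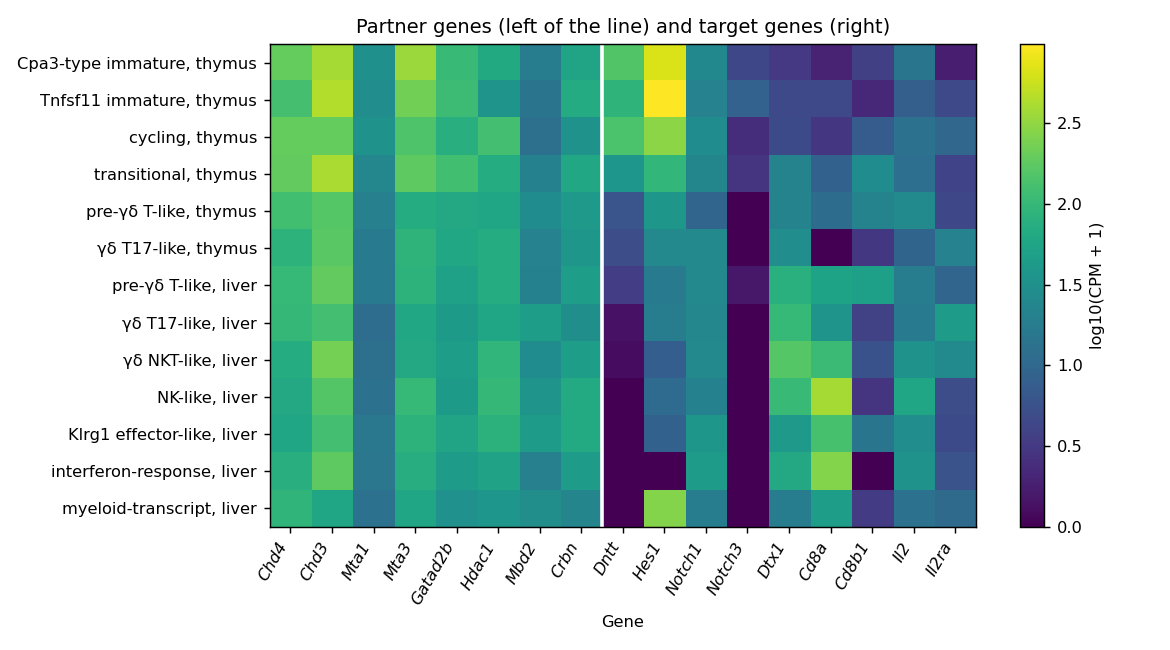
Level of named partner genes (left of the white line) and described target genes (right) in each class, as the log10 of CPM plus 1 (colour). Dntt and Hes1 are bright in the immature thymic classes and dark in the liver apart from Hes1 in the myeloid-transcript cells, and Dtx1 is bright in the hepatic T cell classes.

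Genes described as regulated by Ikaros proteins differed in both directions between thymic stages. Of 17 listed, 7 were tested between transitional and both immature clusters, and 2 were higher and 3 lower in the transitional cells, beside 7.22% of all tested genes past 2-fold in either direction. Hes1, the Notch target repressor, was 8.36-fold lower and stood at 93.5 against 782 CPM. Dntt, which encodes terminal deoxynucleotidyl transferase, was 3.45-fold lower at 36.2 against 125 CPM. Cd8b1 was 12.9-fold higher at 27.1 against 2.10 CPM, and the Notch pathway gene Dtx1 was 7.74-fold higher at 20.8 against 2.69 CPM. The part of the CD8 bead depletion of the thymic cells in the Cd8b1 ratio was not tested. In the same comparison 0 of 4 family genes passed 2-fold, Ikzf2 had a log2 ratio of 0.62 and Ikzf1 stood at 0.951 (0.869 to 1.04) times its immature level.

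Dntt is a gene on whose promoter Ikaros has long been studied, and its transcripts were almost confined to the thymic library, with 1754 UMIs there and 19 in the liver. Its upstream window is shown for that reason. RefSeq places these 250 bases at chr19:41029025-41029274 on the plus strand of GRCm38.p6, outside any annotated gene, and 1 core GGGAA begins 246 bases before the start.
Dntt upstream window: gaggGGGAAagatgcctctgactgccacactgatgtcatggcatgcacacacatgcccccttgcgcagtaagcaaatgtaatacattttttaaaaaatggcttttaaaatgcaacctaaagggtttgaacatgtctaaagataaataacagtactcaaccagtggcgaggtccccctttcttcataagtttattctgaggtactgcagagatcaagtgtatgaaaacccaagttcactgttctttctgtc

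In the liver the listed genes differed by class. Cd8a reached 385 CPM in NK-like and 108 CPM in γδ NKT-like cells against 53.3 CPM in pre-γδ T-like cells, and Cd8b1 went the other way at 1.81, 4.66 and 47.6 CPM. Il2ra, the α chain of the IL-2 receptor, was 5.27-fold higher in γδ T17-like than in pre-γδ T-like cells. Dtx1 stood at 156 CPM in γδ NKT-like and 39.6 CPM in Klrg1 effector-like cells. Between libraries 7 of the 11 tested list genes passed 2-fold, 4 higher in the liver, among them Cd8a by 43.9-fold, and 3 lower, Dntt by 131-fold, Hes1 by 27.8-fold and Notch3 with 3 against 56 UMIs. Of all tested genes 12.1% were higher and 16.9% lower. The CD8 bead depletion was applied to the thymic cells alone, and its part in the Cd8a difference was not tested.

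Among 4277 genes with at least 50 CPM in some group, those with the pattern most like a family member were found by Pearson's correlation of log2(CPM + 10) over 13 library-by-class groups, which share libraries and depth. The 5 closest to Ikzf2 were Zbtb1 (0.95), Naa15 (0.94), Gatad2b (0.94), Eif3m (0.94) and Ndufb5 (0.94), of which Gatad2b is a NuRD subunit on the partner list. Closest to Ikzf3 were St3gal6 (0.93), Dgat1 (0.90), Ppp1r11 (0.88), Rmnd5b (0.87) and Anxa11 (0.85), and to Ikzf1 Pigyl, Arglu1, Utp3, Plaa and Hdac7 (0.89 to 0.91). St3gal6, a sialyltransferase gene, ranged from 10.1 CPM to 248 CPM in hepatic γδ T17-like cells. Between members the correlation was 0.62 for Ikzf1 with Ikzf2, -0.63 for Ikzf1 with Ikzf3 and -0.36 for Ikzf2 with Ikzf3.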

How the data were processed

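The libraries were made with the 10x 3′ v2 kit. The authors deposited raw UMI counts per gene and barcode, without normalization. The submitters' processing notes name Cell Ranger, Seurat 3.0 and build mm10. Here cells were kept with 800 to 4000 genes and at most 6% mitochondrial UMIs (median 2741 hepatic and 3271 thymic UMIs per cell). The study's text gives smaller cell numbers than these limits left. Both libraries were clustered together in Seurat 5.3.0 (LogNormalize, 2000 variable genes, 30 principal components, resolution 0.6), without the family, partner and target genes, which left 1987. Clusters were named by the marker list with the largest mean log2 ratio against all other clusters, if it reached 0.5 and led the next list by 0.2, limits set after the clusters were seen. Scrublet called 4 hepatic and 2 thymic cells and so did not work, and doublets were kept. Levels (CPM) are UMIs summed over a class per 1000000 UMIs. Ratios required 50 cells, levels 20, and list counts 50 UMIs over both classes and 2-fold. Cells were thinned to 1500 UMIs for shares, which left out 5 hepatic and 7 thymic cells. Gene positions are from GENCODE and upstream sequences from RefSeq (GRCm38.p6). Call functions were tested on simulated data. The members and lists were chosen with earlier results of these data known. Named list genes are those past 2-fold, at most 4 per list and comparison, and the 5 most alike genes per member. The marker gates and the Cd24a bins follow single genes, and the Cd24a bins were chosen after seeing the data. Protein sequences were not analysed here.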

Additional observations from a re-analysis of the deposited data

How the results depend on the processing

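No paired analysis was possible because each tissue has 1 library, and for the same reason no replicate could be left out. Ratios and shares were recomputed with other cell limits, clustering settings, scalings and thinning, and without cells of 10 or more hemoglobin UMIs, the last chosen after seeing the data. The Ikzf1 log2 ratio of transitional over immature thymic cells went from -0.07 to 0.07 with a larger set of variable genes. Of the recomputed values, 116 of 135 main values and 163 of 166 others stayed within the interval of the value reported. The Ikzf2 log2 ratio of transitional over immature thymic cells, 0.62, was 0.45 when classes were set by single marker genes. That of hepatic pre-γδ T-like over thymic transitional cells, -2.37, was -2.22 with at least 500 genes per cell, -2.17 with each library clustered alone and -2.25 with thinned cells. That of hepatic over thymic pre-γδ T-like cells, -0.86, was -0.53 with each library clustered alone. The Ikzf3 log2 ratio of γδ T17-like over pre-γδ T-like hepatic cells, 1.71, was 1.95 without the highest Scrublet scores. That of all hepatic over all thymic cells, 1.10, was 0.90 as a mean of each cell's own CPM, 0.91 with thinned cells and 0.96 without mitochondrial and ribosomal-protein genes, each below 2-fold. The cause of these changes was not tested. Shares of cells with a UMI grew with depth by construction: Ikzf2 in thymic transitional cells reached 77.7% at 2000 UMIs and 85.2% unthinned, Ikzf3 in hepatic γδ T17-like cells 34.3% and 44.1%, and Ikzf2 in γδ NKT-like cells 12.8% and 17.1%. A fold of 1.5 gave 17 in place of 11 list genes between the libraries, 5 in place of 0 between the immature clusters and 6 in place of 3 between hepatic γδ T17-like and pre-γδ T-like cells. A minimum of 20 UMIs gave 1 in place of 0 between the immature clusters. Ikzf4 was limited by depth, with 62 and 26 UMIs in all.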

Other observations

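The 42 cycling cells of the liver had 138 CPM of Ikzf2 from 43 UMIs, and the 533 cycling cells of the thymus had 547 CPM (524 to 570).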
